A study of Rattus norvegicus with 9 samples.

Results

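Hemoglobin and granulocyte genes were examined in the rat knee as 10 rows of the deposited expression table: the beta and alpha globins Hbb and Hba-a2, the heme synthesis enzyme Alas2, and the granulocyte genes Camp, RatNP-3b, S100a8, S100a9, Mpo, Elane and Ltf. They were picked by gene symbol from 17602 rows, and all 10 were found. The choice was made with their levels in these libraries already known, Camp and RatNP-3b being among the largest decreases from intact to sham, so the levels of the 10 genes are described without a test. RNA-seq had been run on 9 libraries, 3 each from intact synovium, sham-operated synovium and the tissue that regenerates after partial meniscectomy (pMx). The question put to the genes was how much red cell and granulocyte transcript each tissue carried. All groups came from wild-type male Lewis rats aged 10 to 12 weeks. Intact knees had no surgery. Sham knees underwent an incision of the capsule alone. In pMx knees the medial meniscus was freed from the tibia and lost its front part, and both knees of a rat were operated on. The sham and pMx tissues were taken 1 week after surgery. The pMx sample was the regenerating tissue freed of the synovium around it, so that kind of tissue and kind of surgery cannot be told apart in any comparison with pMx. Expression is given as TPM, a transcript abundance per length that adds up to 1000000 in each library. In bulk tissue, fewer cells of a type and less RNA per cell cannot be told apart.

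Hemoglobin is built from alpha and beta globin chains that each hold a heme group, and red cell precursors in the bone marrow make both chains in balance. Alas2 is the erythroid form of the first enzyme of heme synthesis. It differs from Alas1, which other cells use. Young red cells leave the marrow with globin mRNA still in them, so blood in a tissue brings these transcripts along. Neutrophils fill their granules in stages during maturation in the marrow. Mpo and Elane belong to the primary granules made first, Ltf and Camp to the secondary granules made later, and RatNP-3b is an alpha defensin, an antimicrobial peptide of rat neutrophils. S100a8 and S100a9 form calprotectin, the abundant cytosolic protein pair of mature neutrophils, and are also made by monocytes.

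The sequences that lie just before the start of 4 of the genes are shown as a description, and a link between them and the levels was not tested. RefSeq held such a sequence for 8 of the 10 genes on the GRCr8 assembly, and those of Hbb, Hba-a2, S100a9 and Camp follow, each with the 250 bases before the start, read 5′ to 3′ on the minus strand of the assembly. Capitals mark matches, on either strand, to 5 kinds of short word: the GATA words (AGATAA or TGATAA), the word CACCC, the word CCAAT, the word TATAAA, and the word TTGCNNAA with N for any base. No match overlapped another.
Hbb (chr1:167663722-167663971): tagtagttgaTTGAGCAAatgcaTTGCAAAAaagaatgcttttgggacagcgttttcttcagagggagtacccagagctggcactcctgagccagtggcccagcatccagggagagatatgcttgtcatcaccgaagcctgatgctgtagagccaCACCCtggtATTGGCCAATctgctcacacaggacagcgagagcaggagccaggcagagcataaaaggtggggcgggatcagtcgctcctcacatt
Hba-a2 (chr10:15829139-15829388): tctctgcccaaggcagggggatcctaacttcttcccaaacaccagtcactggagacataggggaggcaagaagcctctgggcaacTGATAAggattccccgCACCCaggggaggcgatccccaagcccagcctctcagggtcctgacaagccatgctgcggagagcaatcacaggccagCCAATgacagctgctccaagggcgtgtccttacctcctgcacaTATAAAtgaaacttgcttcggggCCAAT
S100a9 (chr2:178490623-178490872): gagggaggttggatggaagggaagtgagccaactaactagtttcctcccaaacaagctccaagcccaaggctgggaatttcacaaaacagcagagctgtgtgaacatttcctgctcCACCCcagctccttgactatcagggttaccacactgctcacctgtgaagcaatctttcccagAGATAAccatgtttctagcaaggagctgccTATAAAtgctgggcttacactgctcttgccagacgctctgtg
Camp (chr8:118721999-118722248): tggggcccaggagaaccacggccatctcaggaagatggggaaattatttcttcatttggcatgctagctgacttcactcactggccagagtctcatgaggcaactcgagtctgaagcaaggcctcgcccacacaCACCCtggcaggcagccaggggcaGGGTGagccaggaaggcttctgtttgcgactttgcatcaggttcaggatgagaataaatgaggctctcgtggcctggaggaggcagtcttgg

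Before Hbb, a CACCC word lay 95 to 91 bases ahead of the start, followed by 2 adjoining CCAAT words in opposite orientation at 86 to 82 and 81 to 77 bases. Farther ahead were 2 TTGCNNAA words, at 240 to 233 and 227 to 220 bases. Hba-a2 had a CACCC word at 149 to 145 bases and a GATA word at 165 to 160 bases. It also had CCAAT words at 71 to 67 and 5 to 1 bases and a TATAAA word at 28 to 23 bases. S100a9 had a CACCC word at 134 to 130 bases, a GATA word at 72 to 67 bases and a TATAAA word at 42 to 37 bases. Camp had 2 CACCC words and none of the other 4. Over the 8 genes with a sequence, CACCC occurred in 6, GATA in 4, CCAAT in 3, TATAAA in 2 and TTGCNNAA in 2. Among all 33469 RefSeq promoter windows of that length the shares were 49.2%, 16.9%, 34%, 12.9% and 9.22% in the same order. A match to these letters describes the sequence and is not evidence that a factor binds there.

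The libraries resembled each other in the number of genes above 0 TPM, which ran from 15644 to 16125, and their read depth is unknown because TPM does not keep it. Intact replicate 3 stood apart. Its 8 skeletal muscle genes added up to 43337 TPM, against 60.6 and 251 TPM in the other intact libraries, 234 to 2895 TPM in sham and 85.4 to 2954 TPM in pMx. It also had the least adipocyte transcript of the intact group, with Adipoq at 65.8 TPM against 1027 and 327 TPM. The synovial character of the tissue was checked with 10 fibroblast and lining genes, which summed to 9924 to 12939 TPM in intact, 13675 to 15023 TPM in sham and 26274 to 29160 TPM in pMx. From sham to pMx 3 of the 10 rose (Col1a1, Lum and Thy1), beside 3.36% of all genes, and 3 fell (Clic5, Htra4 and Cd55), beside 4.85%, by the limma test described with the red cell genes. Clic5 had a log2 fold change of -4.09 ± 0.27 (SE), and Prg4, the lubricin of the synovial lining, one of 0.12 ± 0.20. From intact to sham Col1a1, Lum and Thy1 rose too, beside 1.42% of all genes, and none of the 10 fell, beside 0.533%. In that comparison Prg4 had a log2 fold change of -0.995 ± 0.196, just short of the size needed for a call. RNA integrity, as the study lists it for each library, was lowest in intact, higher in sham and highest in pMx with no overlap, and its part in the levels was not tested.

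**Figure D1:**
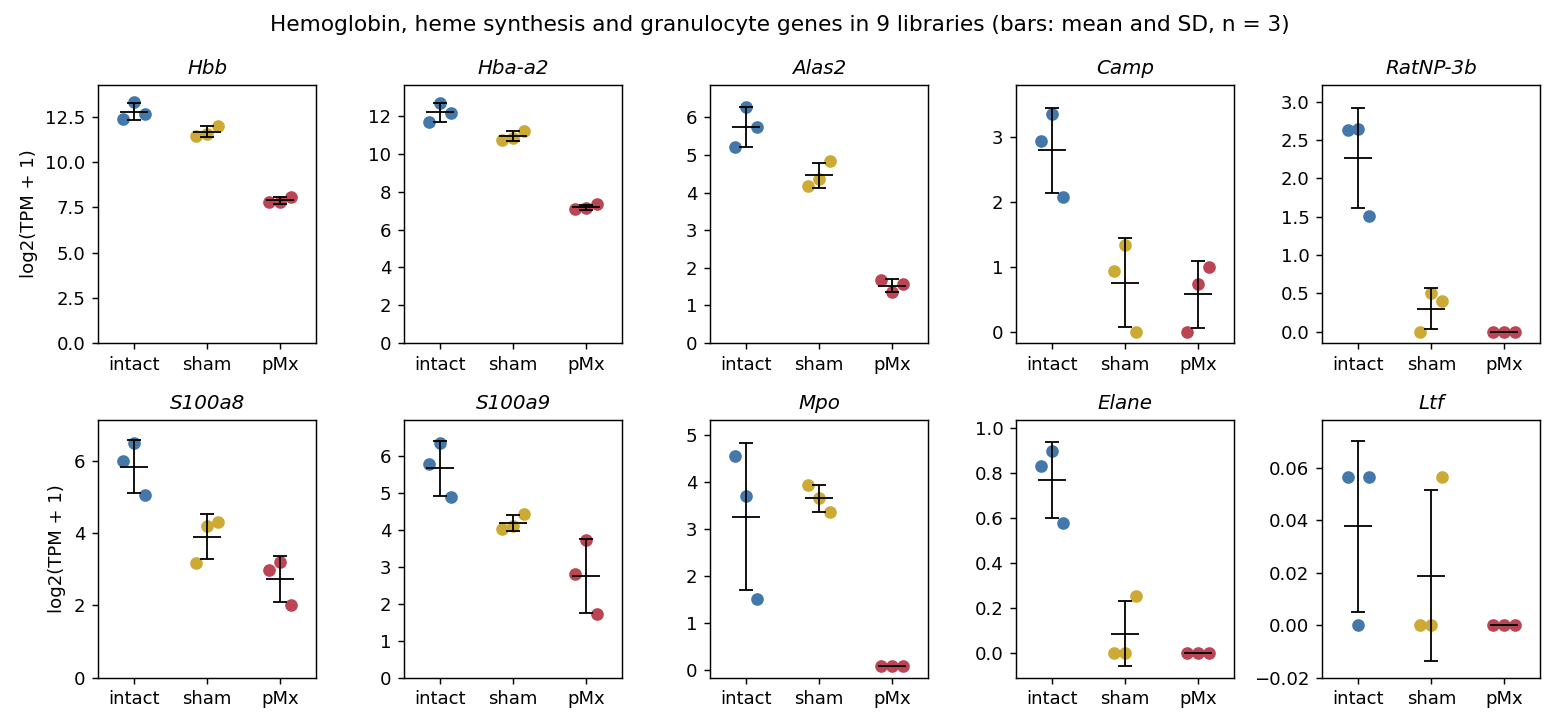
TPM of the 10 genes in the 9 libraries on a log2(TPM + 1) axis of its own scale in each panel, with points for libraries in order of replicate and bars for group mean and SD. Hbb ran from 220 to 10268 TPM and was highest in the intact and lowest in the pMx libraries, while Ltf stayed at or under 0.04 TPM.

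Red cell transcripts were highest in intact synovium, lower in sham synovium and lowest in pMx tissue, and the 3 groups did not overlap for any of the 3 red cell genes. Hbb, in order of replicate number, read 5409, 10268 and 6483 TPM in intact, 2775, 3092 and 4162 TPM in sham and 219.9, 220.2 and 274 TPM in pMx, and later values follow the same order. The lowest intact library was thus above the highest sham library, and the lowest sham library was 10.1 times the highest pMx library. Group means were 7387 ± 2553 (SD, n = 3), 3343 ± 727 and 238 ± 30.9 TPM, which made the intact mean 2.21 times the sham mean and 31.0 times the pMx mean. In intact replicate 2, Hbb ranked 2 among all rows of the library, and in pMx its rank was between 495 and 630.

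Hba-a2, an alpha globin gene, was at 3350.4, 6728 and 4568 TPM in intact, 1687, 1867 and 2400.1 TPM in sham, and 135, 138 and 159 TPM in pMx. Its order of libraries was that of Hbb within each group. Alas2, at far lower levels, read 36.2, 77.2 and 52.1 TPM in intact, 17.0, 19.5 and 27.5 TPM in sham and 2.17, 1.54 and 1.97 TPM in pMx. The intact mean of Alas2 was 2.58 times the sham mean and 29.1 times the pMx mean, close to the corresponding ratios of 2.46 and 33.9 for Hba-a2. As differences of group means of log2(TPM + 1), sham minus intact was -1.11 for Hbb, -1.26 for Hba-a2 and -1.29 for Alas2, and pMx minus sham was -3.79, -3.76 and -2.93.

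Among all 10 genes, every sham library lay below every intact library for 8, beside 16.4% of the 16512 genes in the fit. Every pMx library lay below every sham library for 5, beside 29.0% of genes, and below every intact library for 9, beside 30.6%. The genes were chosen with these levels in view, so nothing is read from the counts. The highest library of 8 of the 10 genes was intact replicate 2.

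Hba-a2 and Alas2 stayed near a fixed ratio to Hbb, which itself had a 46.7-fold range. For each 1000 TPM of Hbb, Hba-a2 measured 577 to 705 TPM over the 9 libraries, a 1.22-fold range. Alas2 measured 6.14 to 9.87 TPM per 1000 TPM of Hbb, a 1.61-fold range, with group means of 7.42 ± 0.678 (SD, n = 3) in intact, 6.35 ± 0.241 in sham and 8.02 ± 1.60 in pMx. The highest of these values was pMx replicate 1, where Alas2 was at 2.17 TPM. Lower red cell genes outside the 10 varied more, with Ahsp at 0.327 to 3.13 TPM per 1000 TPM of Hbb, a 9.59-fold range with its highest values in pMx, and Slc4a1 over a 3.80-fold range. In pMx Ahsp was at 0.36 to 0.69 TPM and Slc4a1 at 0.08 to 0.1 TPM, so these fold ranges are not precise. The granulocyte genes varied too. S100a8 spanned 2.92 to 37.5 TPM per 1000 TPM of Hbb, S100a9 spanned 4.35 to 55.5 TPM, and Mpo spanned 0.219 to 5.19 TPM. The low end for Mpo rests on 0.05 to 0.06 TPM in pMx, too close to 0 for a precise fold range. Per unit of Hbb, pMx replicates 1 and 2 were the highest libraries for S100a8 and S100a9, and the pMx libraries were the lowest for Mpo. Hbb per TPM of 7 summed endothelial genes was 5.51 to 9.71 in intact, 4.22 to 6.15 in sham and 0.408 to 0.416 in pMx.

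**Figure D2:**
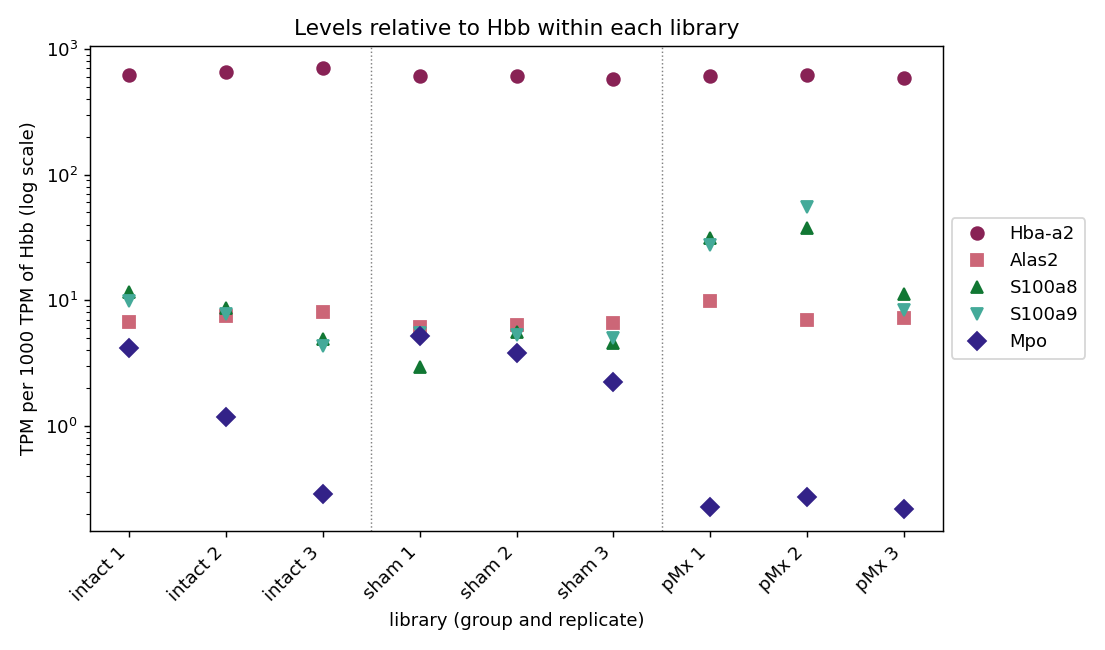
Level of each gene per 1000 TPM of Hbb in the 9 libraries, on a log axis, by group. Hba-a2 stays between 577 and 705 and Alas2 between 6.14 and 9.87, while S100a8, S100a9 and Mpo spread widely.

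The other globin rows of the table followed Hbb and Hba-a2. Globin copies are alike in sequence and can share reads, so their values are uncertain one by one, and all globin rows are given without a test. Hba-a1, the partner copy of Hba-a2, was at 10009, 19229 and 12869 TPM in intact, 4905, 5446 and 7662 TPM in sham and 450.4, 431 and 488 TPM in pMx, and was the most abundant row of intact replicate 2. All 10 globin rows together came to 21671, 41752 and 27556 TPM in intact, 10913, 12179 and 16545 TPM in sham and 953, 929 and 1083 TPM in pMx. Of the 9 globin rows with a mean above 1 TPM, all 9 had groups that did not overlap in the same order of intact, sham and pMx. Over all genes in the fit, 16.4% had every sham library below every intact library. Every pMx library lay below every sham library for 29.0%, and below every intact library for 30.6%. The remaining globin row was Hbz, an embryonic alpha-like globin, which was listed at 0 in every library but intact replicate 2, at 0.33 TPM.

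Of 29 genes of red cell precursors other than globins, 11 fell from intact to pMx and none rose, by limma across all 16512 genes with an adjusted p under 0.05 and a log2 fold change beyond 1. By this rule 14.3% of all genes were called and 7.89% fell. The median log2 fold change of the 29 was -0.66, beside -0.03 over all genes. Slc25a37, a mitochondrial iron importer, had a log2 fold change of 0.04 ± 0.12 (SE). Dmtn, a protein of the red cell membrane skeleton, fell by 2.37 ± 0.15 (SE) on the log2 scale (adjusted p = 6.84e-06), and Ahsp, the chaperone that keeps free alpha globin stable, fell by 2.18 ± 0.34. Others that fell were Slc4a1, Car1, Rhd, Tmod1, Hemgn, Add2, Klf1 and Tal1. Without intact replicate 2, the intact library richest in Hbb, 9 genes were called, and Klf1 and Tal1 were the ones lost.

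Between intact and sham, 3 of the 29 red cell genes fell and none rose, beside 1.96% of all genes called and 0.533% called lower, with a median of -0.47 against -0.02 over all genes. They were Ahsp, with a log2 fold change of -1.55 ± 0.34 (SE, adjusted p = 0.0228), Slc4a1, the anion exchanger of the red cell membrane, with -1.33 ± 0.28, and Rhd, a blood group antigen, with -1.24 ± 0.22. Ahsp read 2.97, 10.8 and 5.27 TPM in intact and 1.28, 1.01 and 1.53 TPM in sham, so the groups did not overlap. This count was unsteady. It was 0 without sham replicate 1 and 0 without sham replicate 2, 1 without intact replicate 2, 7 without intact replicate 1 and 5 without sham replicate 3, and it was 0 when only the 6 intact and sham libraries were fitted.

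From sham to pMx, 2 of the 29 fell and 1 rose, where 8.21% of all genes were called, 4.85% lower and 3.36% higher. Dmtn was at 6.36, 6.91 and 6.95 TPM in sham and 0.51, 0.57 and 1.03 TPM in pMx and fell by 2.20 ± 0.15 (SE) on the log2 scale (adjusted p = 3.4e-05, limma), whereas its intact and sham levels overlapped. Tfrc, the transferrin receptor that brings iron into dividing cells of many kinds, rose by 1.58 ± 0.52 with an adjusted p of 0.0427, and this call was lost on leaving out any of the sham or pMx libraries in turn. In intact replicate 3, the library rich in muscle, Tfrc was at 25.6 TPM and Tmod1, a capping protein of actin filaments that striated muscle also makes, at 51.0 TPM, each the highest value of its gene. Whether muscle had a part in them was not tested.

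Alas2 had a 50.1-fold range over the 9 libraries. The other 12 genes of heme synthesis and its mitochondrial transport, Alas1 among them, had no call in any comparison by limma, where 1.96%, 8.21% and 14.3% of all genes were called from intact to sham, sham to pMx and intact to pMx. At an unadjusted p under 0.05 there were 4, 2 and 3 of the 12 in that order, beside 28.7%, 45.6% and 56.4% of all genes. Their summed level was 279 to 297 TPM in intact, 246 to 268 TPM in sham and 243 to 256 TPM in pMx. Urod, which acts in the middle of the pathway and was the most abundant of them, was at 91.4, 91.1 and 91.7 TPM in intact, 89.98, 70.4 and 75.5 TPM in sham and 75.2, 65.0 and 69.8 TPM in pMx.

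S100a8 and S100a9 were the most abundant granulocyte genes and were ordered by group as the globins were. S100a8 read 62.5, 88.2 and 31.9 TPM in intact, 8.09, 17.3 and 18.9 TPM in sham and 6.93, 8.25 and 3.05 TPM in pMx. Intact and sham did not overlap, while sham and pMx overlapped by a narrow margin, since pMx replicate 2 lay above sham replicate 1. The intact mean was 4.13 times the sham mean and 10.02 times the pMx mean. S100a9 read 53.4, 80.4 and 28.2 TPM in intact, 15.3, 16.3 and 20.7 TPM in sham and 6, 12.2 and 2.3 TPM in pMx, and no group overlapped another. The 2 genes stayed near each other, with S100a8 at 0.529 to 1.33 times S100a9 and a Pearson r of 0.965 between them over the 9 libraries on the log2 scale, which share groups and tissue. Both were lowest of the intact group in replicate 3, the library rich in muscle.

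Camp, the cathelicidin of secondary granules, was low in all groups and lay higher in intact. It read 6.67, 9.23 and 3.22 TPM in intact, 0.9, 1.53 and 0 TPM in sham and 0, 0.67 and 0.99 TPM in pMx. Sham and pMx overlapped, with the highest value of either at 1.53 TPM. RatNP-3b read 5.2, 5.27 and 1.84 TPM in intact and 0, 0.42 and 0.32 TPM in sham, and was listed at 0 in all 3 pMx libraries. Its intact replicate 3 was the lowest of that group, as for Camp. The difference of sham from intact was -2.04 for Camp and -1.96 for RatNP-3b on the log2(TPM + 1) scale, which understates the change of genes this low. Of the 3 other alpha defensin rows, which can share reads with RatNP-3b, Defa5 read 5.96, 14.8 and 2.27 TPM in intact, 0, 2.6 and 0.4 TPM in sham and 0 in each pMx library. Np4 read 2.67, 8.43 and 0 TPM in intact and at most 0.84 TPM elsewhere. Defa11 was above 0 in intact replicate 3 alone, at 1.39 TPM.

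Elane, the neutrophil elastase of primary granules, did not reach 1 TPM in any library. It read 0.78, 0.86 and 0.49 TPM in intact and 0, 0 and 0.19 TPM in sham, and was listed at 0 in pMx. The intact and sham libraries did not overlap. Ltf, lactoferrin of the secondary granules, was at 0.04, 0 and 0.04 TPM in intact, 0.04 TPM in sham replicate 3 and 0 in the other sham libraries and in pMx. Its levels allow no order of groups. Ltf and Camp, though both of secondary granules, thus differed in level, with Ltf never above 0.04 TPM and Camp up to 9.23 TPM.

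Mpo, myeloperoxidase of the primary granules, differed from Elane and Camp in the order of its libraries. It read 22.7, 12.1 and 1.86 TPM in intact, 14.4, 11.7 and 9.24 TPM in sham and 0.05, 0.06 and 0.06 TPM in pMx. Sham lay inside the intact range, and the means of 12.2 ± 10.4 (SD, n = 3) and 11.8 ± 2.58 TPM differed by less than the spread between libraries. All pMx libraries lay far below, at values too close to 0 for a precise ratio. Leaving aside Ltf, Mpo was the only one of the 10 genes whose log2 means were not ordered intact, sham, pMx, and without intact replicate 3 it took that order too. Over the 9 libraries its Pearson r on the log2 scale was 0.503 with Elane, 0.495 with Camp, 0.558 with RatNP-3b, 0.669 with S100a8, 0.734 with S100a9, 0.325 with Ltf and 0.846 with Hbb. It was 0.964 with Adipoq, the adipocyte hormone adiponectin, and 0.981 with Plin1, the coat protein of fat droplets. These points share the near absence of both Mpo and adipocyte transcripts in pMx.

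Adipocyte levels moved with Mpo in the single libraries as well. Adipoq read 1027, 327 and 65.8 TPM in intact, 879.7, 699 and 649 TPM in sham and 3.2, 0.71 and 11.7 TPM in pMx, so that intact replicates 1 to 3 and sham replicates 1 to 3 stood in the same order for both genes. All 7 adipocyte genes fell from sham to pMx, beside 4.85% of all genes, and all 7 from intact to pMx, beside 7.89%, and none was called from intact to sham by limma, with 1 at an unadjusted p under 0.05, beside 28.7% of all genes. Their sum was 3396 to 7198 TPM in intact, 4444 to 4815 TPM in sham and 348 to 524 TPM in pMx. Whether adipose tissue in the samples had a part in the Mpo values was not tested.

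**Figure D3:**
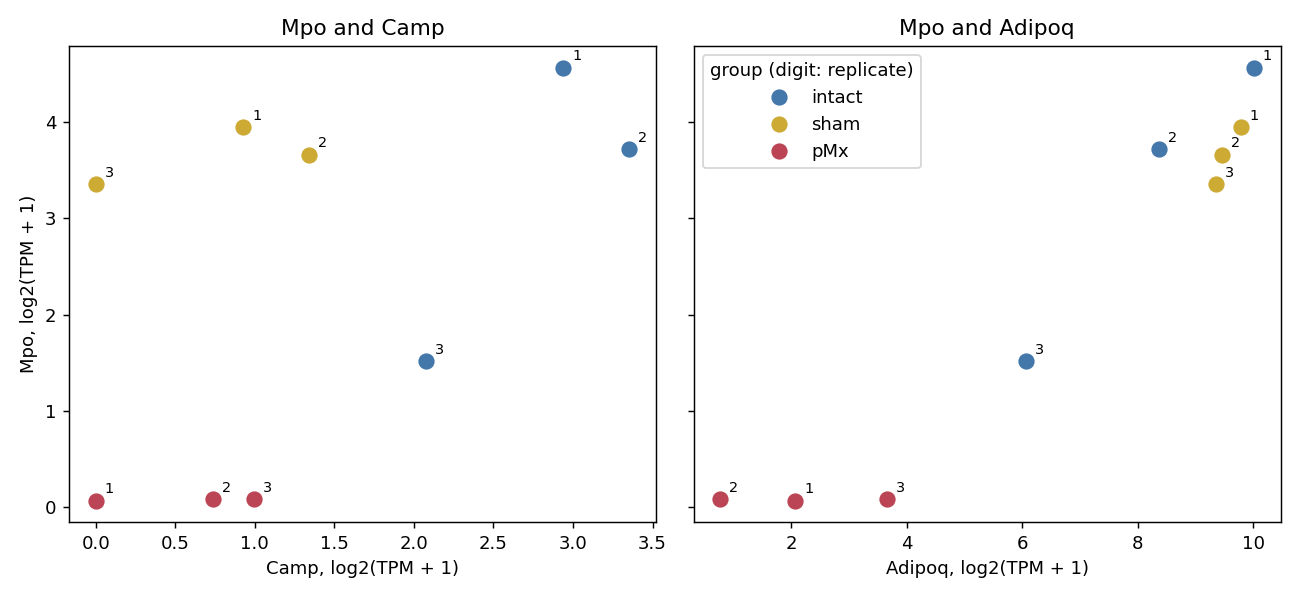
Mpo against Camp (left) and against Adipoq (right) in the 9 libraries, on log2(TPM + 1) axes, with 1 point per library, colored by group and numbered by replicate. The points lie near a line for Adipoq (r = 0.964) and scatter for Camp (r = 0.495).

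Neutrophil genes outside the 10 were called in both directions. Of 44 genes of the primary, secondary and tertiary granules and of mature neutrophils, 40 were in the fit. From intact to sham 5 rose (Mmp9, Clec4d, Lyz2, Clec4e and Slpi), beside 1.42% of all genes, and 1 fell (Ngp), beside 0.533%. From sham to pMx 2 rose (Adam8 and Mcemp1), beside 3.36%, and 3 fell (Hp, Chi3l1 and Srgn), beside 4.85%, both near the share over all genes. From intact to pMx 8 rose, beside 6.40%, and 5 fell, beside 7.89%. The list's median log2 fold change was 0.08, -0.08 and 0.05 in that order of comparisons. Without intact replicate 3, the library rich in muscle, the neutrophil genes gave 6, 5 and 14 calls in either direction in the same order, and the 29 red cell genes gave 4, 3 and 13.

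Ngp, a secondary granule protein of the same family as Camp, followed Camp. It read 6.64, 7.41 and 1.4 TPM in intact, 0.25, 1.21 and 0.49 TPM in sham and 0.14, 0.26 and 0.14 TPM in pMx. It fell by 1.74 ± 0.44 (SE) on the log2 scale from intact to sham (adjusted p = 0.0371, limma), a call lost in 8 of the 9 fits that left out 1 library, at an adjusted p of up to 0.119. From intact to pMx it fell by 2.19 ± 0.44. Over the 9 libraries its r with Camp was 0.922. Ctsg, a primary granule protease, read 1.35, 1.48 and 0.44 TPM in intact and at most 0.14 TPM elsewhere, with a log2 fold change of -0.96 ± 0.19 from intact to sham that did not reach the size needed for a call. Prtn3, another such protease, did not exceed 0.43 TPM. Hp, haptoglobin, read 59.6, 27.3 and 7.29 TPM in intact, 40.4, 33.0 and 21.4 TPM in sham and 5, 4.88 and 5.28 TPM in pMx, and its r with Mpo was 0.983. Lcn2, a secondary granule protein that epithelia and other cells make too, was at 13.1 to 29.5 TPM over all libraries and was not called.

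Several of the genes that rose are known from cells other than granulocytes. Lyz2, lysozyme, was at 2934, 1839 and 1659 TPM in intact, 6027, 5870.2 and 5290.3 TPM in sham and 6694, 6523 and 6746 TPM in pMx, and rose by 1.46 ± 0.20 (SE) on the log2 scale from intact to sham (adjusted p = 0.00538, limma). Clec4d and Clec4e, lectin receptors of myeloid cells, rose by 1.90 ± 0.25 and 1.42 ± 0.14. Mmp9, gelatinase of tertiary granules and of osteoclasts, rose by 2.62 ± 0.65 with an adjusted p of 0.0349, and this call was lost in 7 of the 9 fits that left out 1 library. Csf3r, the receptor for granulocyte colony-stimulating factor, rose from intact to pMx by 1.12 ± 0.20. Sums over the 22 mature neutrophil genes were 109 to 147 TPM in intact, 171 to 218 TPM in sham and 126 to 137 TPM in pMx, whereas S100a8 and S100a9 together were at 60.1 to 169, 23.4 to 39.5 and 5.35 to 20.5 TPM. Alox5ap made up most of the sum over the 22 genes, at means of 81.5 TPM in intact, 120 in sham and 66.7 in pMx.

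Of 13 monocyte and macrophage genes, 1 rose from intact to sham (Ccr2), beside 1.42% of all genes, and the same gene fell from sham to pMx, beside 4.85%. From intact to pMx 4 rose (Cd68, Mpeg1, Itgam and Cybb), beside 6.40% of all genes, and none fell. The list's median log2 fold change from intact to sham was 0.70, beside -0.02 over all genes, with 11 of the 13 at an unadjusted p under 0.05, beside 28.7% of all genes. It was -0.12 from sham to pMx and 0.59 from intact to pMx. The most abundant of the list, C1qa and C1qb, were not called. Their log2 fold changes were -0.35 ± 0.21 (SE) and -0.67 ± 0.20 from sham to pMx, and 0.17 ± 0.21 and -0.31 ± 0.20 from intact to pMx. Cd68, a lysosomal protein of macrophages, was at 101, 70.9 and 66.0 TPM in intact, 147, 166.5 and 138 TPM in sham and 228, 209 and 189.7 TPM in pMx, and rose by 1.41 ± 0.15 (SE) on the log2 scale from intact to pMx (adjusted p = 0.000109, limma). Over the 9 libraries Mpo had an r of -0.507 with Cd68 and -0.354 with Lyz2, but 0.959 with Cd163, a receptor of resident macrophages. The 2 calls of Ccr2, a chemokine receptor of monocytes, were lost in 8 and in 5 of the 9 fits that left out 1 library.

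**Figure D4:**
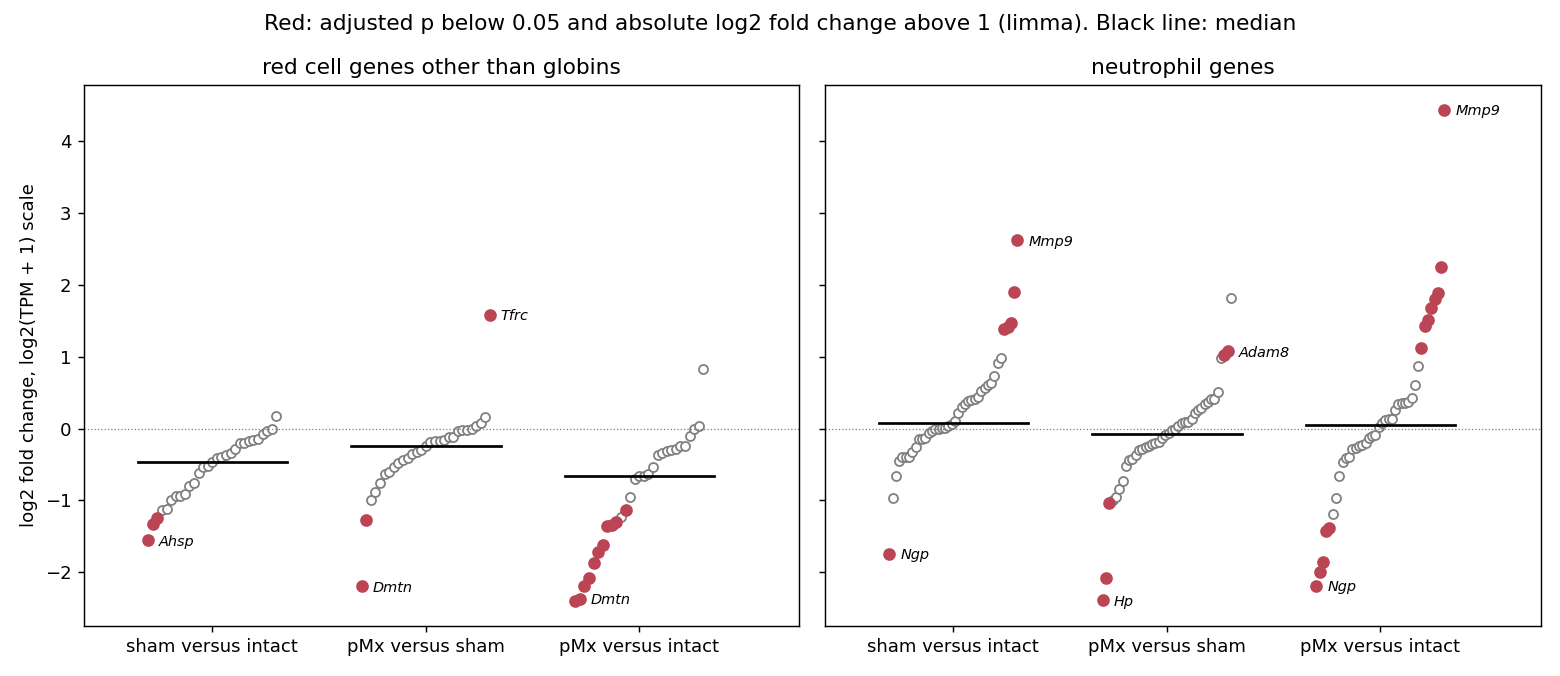
Log2 fold change of each red cell gene (left) and neutrophil gene (right) in the 3 comparisons, as points sorted by value, with called genes in red and a black line at the median. Red cell genes lie mostly below 0 from intact to pMx (11 of 29 fell), while neutrophil genes lie on both sides (8 rose and 5 fell of 40).

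Among genes of eosinophils, basophils and platelets, those called were lower in pMx, where 4.85% of all genes fell from sham and 7.89% from intact. Of 7 eosinophil and basophil genes in the fit, none was called from intact to sham, with 3 at an unadjusted p under 0.05, beside 28.7% of all genes, while Alox15 fell from sham to pMx and Alox15 and Prg2 fell from intact to pMx. Prg2, the major basic protein of eosinophil granules, read 2.93, 3.77 and 0.55 TPM in intact, 0, 0.52 and 0.32 TPM in sham and 0 in pMx. Of 11 platelet and megakaryocyte genes, none was called from intact to sham, with 4 at an unadjusted p under 0.05, Clec1b fell from sham to pMx, a call lost in 3 of the fits that left out 1 library, and Gp9, a subunit of the platelet receptor for von Willebrand factor, fell from intact to pMx with a log2 fold change of -1.15 ± 0.16 (SE, adjusted p = 0.000394, limma). Pf4, platelet factor 4, which macrophages make too, was at 76.8 to 104 TPM in intact, 151 to 224 TPM in sham and 136 to 137 TPM in pMx and was not called. By the adjusted p alone, 2 of the 11 were higher from intact to pMx (Gp6 and Pf4) and 5 were lower. By that rule 8350 of all 16512 genes were called in either direction. Gp6 had a log2 fold change of 0.89 ± 0.11 in that comparison, short of the size needed for a call.

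Of 14 B lineage genes, 9 were highest in intact replicate 2, the library richest in globin, as were all 7 endothelial genes. The same held for 22 of the 29 red cell genes. It held for 3 of 22 mature neutrophil genes and for none of 13 monocyte and macrophage or 7 adipocyte genes. No share over all genes is given for these counts. Of 12 B lineage genes in the fit, 4 (Cd79a, Cd79b, Ms4a1 and Pax5) fell from intact to pMx, beside 7.89% of all genes, and 1 rose, beside 6.40%, which was Blnk, an adaptor of B cells and macrophages. From intact to sham Blnk rose, beside 1.42% of all genes, and none fell, beside 0.533%. From sham to pMx Cd79a fell, beside 4.85%, and none rose, beside 3.36%. Cd79a, part of the B cell receptor, read 7.72, 14.0 and 6.31 TPM in intact, 5.76, 4.18 and 5.97 TPM in sham and 2.61, 1.36 and 1.75 TPM in pMx, and fell by 1.78 ± 0.28 (SE) on the log2 scale from intact to pMx (adjusted p = 0.000763, limma). Vpreb1, of the receptor of B cell precursors in the marrow, was at 1.65 TPM in intact replicate 2 and at most 0.53 TPM in the other libraries, and Rag1, which cuts receptor genes in lymphocyte precursors, was at 0.16 TPM there, 0.08 TPM in intact replicate 1 and 0 elsewhere. Vpreb2 and Dntt, also of lymphocyte precursors, were not highest there, with Vpreb2 at 1.01 TPM in sham replicate 3 and 0 in intact replicate 2, and Dntt at 0.37 to 0.68 TPM in pMx and 0.15 to 0.29 TPM in intact. Whether marrow in the samples had a part in the red cell and granulocyte levels was not tested.

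Of 11 genes of hematopoietic progenitors and dividing cells, the same 4 rose in each comparison and none fell. These were Mki67, Top2a, Rrm2 and Cdk1, all used by dividing cells, and the shares of all genes called higher were 1.42% from intact to sham, 3.36% from sham to pMx and 6.40% from intact to pMx. The list's median was 0.14, -0.11 and -0.11 in that order. Cd34 and Cd48, surface proteins of progenitors and of other cells and the most abundant of the list, had log2 fold changes of -0.65 ± 0.12 (SE) and -0.83 ± 0.08 from sham to pMx, short of the size needed for a call. Cdk1 was at 5.03, 6.24 and 5.06 TPM in intact, 20.3, 23.8 and 15.5 TPM in sham and 73.2, 67.1 and 72.7 TPM in pMx. Of 13 osteoblast and osteoclast genes, 1 rose from intact to sham (Acp5, the acid phosphatase of osteoclasts), beside 1.42% of all genes. From sham to pMx Sp7 rose, beside 3.36% of all genes, and Phex fell, beside 4.85%. From intact to pMx 5 rose, beside 6.40%, and 1 fell (Phex), beside 7.89%. The sum of the 13 was 293 to 412 TPM in intact, 626 to 678 TPM in sham and 821 to 913 TPM in pMx. Ctsk, among those that rose from intact to pMx, made up most of it, at means of 297, 556 and 722 TPM.

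Of 16 genes that handle heme and iron, 2 rose from intact to sham and none fell, 3 rose and 3 fell from sham to pMx, and 4 rose and 2 fell from intact to pMx. The shares of all genes called higher and lower were 1.42% and 0.533%, 3.36% and 4.85%, and 6.40% and 7.89% in that order. Hmox1, heme oxygenase, which breaks heme down, read 47.0, 35.9 and 39.8 TPM in intact, 112, 135 and 80.0 TPM in sham and 475, 349 and 619.8 TPM in pMx, in the reverse order of the globins. It rose by 1.37 ± 0.24 (SE) on the log2 scale from intact to sham and by 2.12 ± 0.24 from sham to pMx (adjusted p = 0.0118 and 0.000277, limma). Slc11a1, an iron transporter of phagosomes, rose in both steps, and Slc40a1, the iron exporter ferroportin, rose from sham to pMx by 1.23 ± 0.18. Cd163, the macrophage receptor for hemoglobin bound to haptoglobin, fell from sham to pMx with a log2 fold change of -2.24 ± 0.25, from 27.8, 26.3 and 27.7 TPM to 5.03, 6.38 and 3.75 TPM. Hp, its partner in plasma, and Tf, transferrin, fell in that comparison too. The ferritin heavy chain Fth1 was at 3845 to 5365 TPM over the 9 libraries and was not called. The light chain Ftl1 was among the genes that rose from intact to pMx, by 1.01 ± 0.12, a call lost in 4 of the 9 fits that left out 1 library.

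Endothelial genes, a measure of blood vessels, had no call from intact to sham by limma, where 1.96% of all genes were called, with all 7 at an unadjusted p under 0.05, beside 28.7% of all genes. None was called from sham to pMx, beside 8.21%, with 5 of the 7 at an unadjusted p under 0.05, beside 45.6%. These went both ways. Kdr and Cdh5 were higher in pMx, with log2 fold changes of 0.42 and 0.33, and Emcn, Vwf and Tek were lower. From intact to pMx, where 7.89% of all genes fell, Emcn, Vwf and Tek fell, with log2 fold changes of -1.42 ± 0.11 (SE), -1.17 ± 0.15 and -1.04 ± 0.15 (adjusted p = 2.03e-05, 0.000296 and 0.000531). The sum of the 7 was 818 to 1058 TPM in intact, 658 to 713 TPM in sham and 529 to 667 TPM in pMx, a much smaller spread than that of Hbb. How much of the globin difference came with the number of vessels was not tested.

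Among 13196 genes with a mean of at least 1 TPM, the patterns most like the red cell genes over the 9 libraries were those of Hba-a1 (Pearson r = 0.9998 on the log2 scale), Pkhd1l1 (0.998), Hbb-b1 (0.998), Pln (0.998) and LOC100134871 (0.998). Of these, 3 are globin rows. Pln, phospholamban of cardiac and slow muscle, read 32.3, 57.7 and 35.1 TPM in intact, 18.8, 21.8 and 28.5 TPM in sham and 1.97, 1.64 and 2.42 TPM in pMx. Pkhd1l1 read 6.34, 8.52 and 6.83 TPM in intact, 3.44, 3.31 and 4.74 TPM in sham and 0.04, 0.08 and 0.12 TPM in pMx. Those most like the 7 granulocyte genes were Gprasp2 (0.996), Cdc42se2, Zfp654, Mark1 and Pkn2 (each 0.989), with ranges from 29.7 to 45.6 TPM for Cdc42se2 to 6.25 to 20.8 TPM for Mark1. For Mpo alone, taken up after its values were seen, the closest included MGC109340 (0.995), Mst1 (0.993), Lipe (0.992) and C4bpa (0.989), of which Lipe is the hormone-sensitive lipase of adipocytes. High values of r over 9 libraries in 3 groups include the difference between the groups.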

How the data were processed

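Total RNA from 9 tissue samples (3 intact, 3 sham, 3 pMx) was selected with oligo-dT beads, made into dUTP libraries and sequenced on a DNA nanoball instrument by a sequencing provider. The deposited table holds TPM per gene, as the authors supplied it. Submitters' processing notes name HISAT2 2.0.4 and the mRatBN7.2 build, without their roles; how the counting split reads between near-identical globin or defensin copies is not given in the sources used here. Replicates are named biological in the titles, but nothing says that they came from separate animals, so p-values measure the spread between these samples, which may be technical. The 10 genes and all gene lists were chosen with earlier results of these data known.

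From the TPM, genes above 0 in at least 3 libraries (16512 of 17602; all 10 genes of interest) were fitted with limma 3.58.1 in R 4.3.3 on log2(TPM + 1), with all 9 libraries, 1 mean per group, a trend in the prior variance and Benjamini-Hochberg adjustment over all genes. Fold changes are on that scale, which understates the change of low genes. A gene was called at an adjusted p under 0.05 with a log2 fold change beyond 1. The 10 genes and the other globin and defensin rows are described without a test, and no set test was run. A few list genes are counted but not reported by name here. Genes were named by a rule: the 10; of each list those called, or where over 6 the 3 largest each way, and the 2 most abundant; and the 5 with the highest Pearson r to the red cell and to the granulocyte genes; Ctsg, Prtn3, Lcn2, Vpreb1, Rag1, Vpreb2, Dntt, Slc25a37, Prg4 and the likes of Mpo were added after their values were seen. Alternatives were the pseudocount, the filter, the call rule, scaling, variance trend, libraries in the fit, the replicate block and leaving out each library. The fit was tested on simulated data. Read depth cannot be had from TPM, so no counting interval is given. Promoter sequences are from RefSeq on GRCr8, another build than the notes name, and the table holds no coordinates.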

Additional observations from a re-analysis of the deposited data

How the results depend on the processing

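Counts of called genes depended on the threshold and the pseudocount. With an adjusted p alone, in place of that and a fold change, 2097 genes were called from intact to sham (323 with both), 6046 from sham to pMx (1355) and 8350 from intact to pMx (2360). With a pseudocount of 0.1 the counts were 612 from intact to sham and 2229 from sham to pMx, and with 0.01 they were 603, 2303 and 3662 in the 3 comparisons. The 29 red cell genes gave 7, 7 and 18 calls with the adjusted p alone, 7, 11 and 19 with a pseudocount of 0.1 and 5, 13 and 19 with 0.01, in the order intact to sham, sham to pMx and intact to pMx, and 0 from intact to sham with the 6 libraries of that comparison alone. The neutrophil genes gave 10, 9 and 20 calls with the adjusted p alone, and from sham to pMx 8 with a pseudocount of 0.1 and 8 with 0.01.

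Leaving out 1 library in turn gave 191 to 417 calls from intact to sham, 1221 to 1448 from sham to pMx and 2301 to 2420 from intact to pMx. For the red cell genes the ranges were 0 to 7, 2 to 3 and 9 to 13, and for the neutrophil genes 4 to 6, 4 to 8 (8 without sham replicate 2) and 11 to 14. Log2 means stood in the order intact, sham, pMx for 9 of the 10 genes, Ltf counted among them although its levels are at or under 0.04 TPM, and for 7 to 10 on leaving out a library. Of 124 calls of list genes other than globins and defensins, 94 held under every alternative, 12 were lost in at least 1 alternative other than leaving out a library, 30 in at least 1 fit without a library, and none changed direction. Other calls lost without 1 library included, from intact to sham, Acp5 and Blnk (each lost in 4 fits: without intact replicate 2 or 3, sham replicate 1 or 2). From sham to pMx they included Adam8 (pMx replicate 3), Alox15 (sham replicate 3), Cd55 (sham replicate 1, pMx replicate 2 or pMx replicate 3), Cd79a (pMx replicate 2), Hp (sham replicate 1, adjusted p = 0.0539, limma) and Mcemp1 (sham replicate 3, pMx replicate 2, and either smaller pseudocount). From intact to pMx they included Csf3r, Cybb and Itgam (each without intact replicate 3), Hp (5 fits), Il1r2 (intact replicate 1), Pax5 (3 fits), Tek (3 fits) and Vwf (pMx replicate 1). No other cause of these changes than the setting itself was tested. For the 30 differences between groups of the 10 genes, 390 values were computed under the alternatives, and 30 of them moved beyond the spread between libraries, each under a smaller pseudocount and none with another scaling or without a library. A change of sign can lie within that spread. Without a library, the difference of Mpo from intact to sham ran from -0.487 to 1.04 (0.388 with all libraries). That of Camp from sham to pMx ran from -0.555 to 0.115 (-0.178 with all libraries). Rescaling moved the median log2 fold change of all genes by at most 0.0268.

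Samples with the same replicate number did not all deviate together (r of 0.0016, -0.399 and -0.494 from intact to sham, 0.0346, 0.368 and 0.485 from sham to pMx, and -0.378, -0.439 and -0.664 from intact to pMx). Deviations from a mean of 3 libraries are tied to each other within a group, so these values cannot decide whether the numbers pair the samples. With the replicate block, 297, 1343 and 2350 genes were called, the red cell genes gave 4, 2 and 11 and the neutrophil genes 6, 5 and 13, and 2 of the 124 calls were lost (Tfrc from sham to pMx and Ccr2 from intact to sham). With 3 libraries a group and no read depth, genes near 0 TPM, Elane and Ltf among them, allow no precise ratio.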
